A study of Mus musculus with 19 samples.

Results

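The peaks on mouse chromosome 8 were counted in each of 9 deposited peak lists and set beside the RNA of the genes on that chromosome. Of 76793 peaks in all lists, 5248 lay on chromosome 8, and 1144 of the 24016 genes of the RNA table were annotated there. The chromosome was picked out because its number of peaks per Mb stood apart in these lists, so its densities are given as descriptions, without a test. The cells were mouse embryonic stem cells (ESC) of the line E14, grown on irradiated fibroblast feeders, and neural precursor cells (NeuP), whose line the labels do not name. ESC carried a lentiviral non-target hairpin (control) or 1 of the Nup153 hairpins #2 and #4, and had been kept in puromycin for 4 days or longer. NeuP carried no hairpin. They were made from embryoid bodies with Noggin in N2 medium and kept with FGF2 and EGF. For DamID, ESC were transduced with Nup153, Oct4 or GFP fused to the bacterial Dam methylase, in a vector with a heat shock promoter. ChIP-seq gave 1 list each for Ring1B in control ESC, hairpin #2 ESC, hairpin #4 ESC and NeuP, for Cbx7 in control ESC, and for Oct4 in control and hairpin #2 ESC. DamID gave 1 list for Nup153 and 1 for Oct4, each standing for 2 replicates. RNA was measured in 1 control ESC library, 1 library of each hairpin and 2 NeuP libraries.

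Polycomb repressive complex 1, to which Ring1B and Cbx7 belong, binds mainly at CpG-rich starts of developmental genes and keeps them silent in ESC. Oct4 is a pluripotency factor that binds an octamer sequence, and Nup153 is a nucleoporin of the nuclear basket. In DamID the fused methylase marks GATC sites near the place where the protein sits. Chromosome 8 of the mouse carries clusters of Iroquois, cadherin, metallothionein and defensin genes, and gain of the whole chromosome is a well-known change of mouse ESC in culture. Copy number itself was not measured in the files used here, and its part in the values below was not tested.

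The 5 promoters shown here belong to chromosome 8 genes on which the results turn: a pluripotency gene with DamID peaks, 3 Polycomb targets of ESC and a neural gene with a Ring1B peak in NeuP. They are RefSeq sequences of GRCm38.p6, from 250 bases before to 50 bases after the start, written on the strand of the gene. Their start may differ from that of the transcript in the RNA table, which is in mm9. In Zfp42, on the minus strand at chr8:43306960-43307259, capitals mark the octamer, searched as ATGCAAAT on both strands, which 2.36% of 1442 chromosome 8 promoters and 1.74% of all 32851 promoters of this length held. In the other 4, capitals mark the dinucleotide CG. Tox3 (minus strand, chr8:90348203-90348502) held 52 of them, Hand2 (plus strand, chr8:57320733-57321032) 17, Nrp1 (plus strand, chr8:128358823-128359122) 14 and Ncan (minus strand, chr8:70120795-70121094) 9. The median was 8 per promoter on chromosome 8 and 7 over all promoters.
Zfp42: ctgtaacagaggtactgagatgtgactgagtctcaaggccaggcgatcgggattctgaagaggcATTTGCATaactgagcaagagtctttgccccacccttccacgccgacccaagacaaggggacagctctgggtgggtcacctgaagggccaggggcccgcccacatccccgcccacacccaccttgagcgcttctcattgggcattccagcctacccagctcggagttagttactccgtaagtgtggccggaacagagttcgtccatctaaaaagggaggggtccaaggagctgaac
Tox3: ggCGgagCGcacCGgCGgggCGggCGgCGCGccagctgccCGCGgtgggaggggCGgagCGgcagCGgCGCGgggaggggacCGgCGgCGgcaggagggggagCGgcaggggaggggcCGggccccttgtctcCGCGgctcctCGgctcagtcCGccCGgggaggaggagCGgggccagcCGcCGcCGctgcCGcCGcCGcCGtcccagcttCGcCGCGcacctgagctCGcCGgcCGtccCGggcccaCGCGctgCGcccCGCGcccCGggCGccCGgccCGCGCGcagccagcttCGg
Nrp1: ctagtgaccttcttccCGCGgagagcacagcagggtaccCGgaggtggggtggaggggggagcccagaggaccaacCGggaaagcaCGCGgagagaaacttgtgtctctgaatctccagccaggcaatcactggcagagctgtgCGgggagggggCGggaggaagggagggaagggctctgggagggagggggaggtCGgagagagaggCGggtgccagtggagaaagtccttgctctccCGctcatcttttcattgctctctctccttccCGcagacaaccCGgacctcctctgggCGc
Hand2: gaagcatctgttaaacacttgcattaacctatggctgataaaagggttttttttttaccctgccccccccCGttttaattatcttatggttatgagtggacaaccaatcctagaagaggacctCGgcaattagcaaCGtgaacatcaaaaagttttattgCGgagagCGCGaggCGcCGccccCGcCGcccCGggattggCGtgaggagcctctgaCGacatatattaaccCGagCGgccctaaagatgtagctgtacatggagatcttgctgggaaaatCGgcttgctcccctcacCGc
Ncan: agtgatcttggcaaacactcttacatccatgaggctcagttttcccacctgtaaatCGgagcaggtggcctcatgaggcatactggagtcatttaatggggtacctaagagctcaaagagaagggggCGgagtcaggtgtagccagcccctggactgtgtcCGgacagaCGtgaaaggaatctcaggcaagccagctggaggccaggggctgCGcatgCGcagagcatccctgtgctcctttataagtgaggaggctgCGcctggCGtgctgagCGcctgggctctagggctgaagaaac

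All 8 ESC lists were denser on chromosome 8 than on the median of the other 18 autosomes, and the NeuP list was sparser there. Density was taken as peaks per Mb, counted from 3 Mb to the last feature of the chromosome in the files. For Ring1B in control ESC, chromosome 8 held 945 of 11686 autosomal peaks, or 8.09% (Wilson 95% interval 7.61 to 8.59), on 5.33% of the autosomal span. This was 7.34 peaks per Mb against a median of 4.54, a ratio of 1.62 (95% Poisson interval 1.52 to 1.72, counting error only), and the highest of the 19 autosomes. Chromosome 8 ranked first in 6 of the 8 ESC lists.

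The knockdown lists and the other factors gave similar ratios. Ring1B stood at 9.36 peaks per Mb against 5.88 in hairpin #2 (1205 peaks, ratio 1.59, second to chromosome 11 at 9.38) and at 7.47 against 4.50 in hairpin #4 (961 peaks, ratio 1.66). Cbx7 stood at 7.57 against 4.72 in control ESC (974 peaks, ratio 1.60). The Oct4 lists were short: 124 peaks in control ESC (0.963 per Mb against 0.546, ratio 1.77, interval 1.47 to 2.105) and 129 in hairpin #2 (1.00 against 0.629, ratio 1.59, interval 1.33 to 1.89).

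DamID, which needs no antibody, gave a ratio of 1.52 for Oct4 (270 peaks, 2.098 per Mb against 1.38, interval 1.34 to 1.71) and of 1.22 for Nup153 (218 peaks, 1.69 against 1.39, interval 1.06 to 1.39). Nup153 was thus the ESC list with the smallest excess, and chromosome 8 ranked number 5 of 19 in it, below chromosome 11 at 2.12 per Mb. The Ring1B libraries of ESC held 4.99 M tags in the control, 30.8 M in hairpin #2 and 9.95 M in hairpin #4, and their ratios lay between 1.59 and 1.66. Chromosome 8 held 8.89 genes per Mb and ranked number 10 of the 19 in gene density.

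In NeuP, Ring1B gave 422 peaks on chromosome 8 of 14355 on autosomes, or 2.94% (2.68 to 3.23). The density was 3.28 per Mb against a median of 6.03, a ratio of 0.544 (interval 0.493 to 0.599), the lowest of the 19 autosomes. The next lowest was chromosome 12 at 4.42 per Mb, and the highest chromosome 11 at 8.15. This list came from 1 library of 33.2 M tags, and per its header the peaks were called against an IgG library of ESC.

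**Figure D1:**
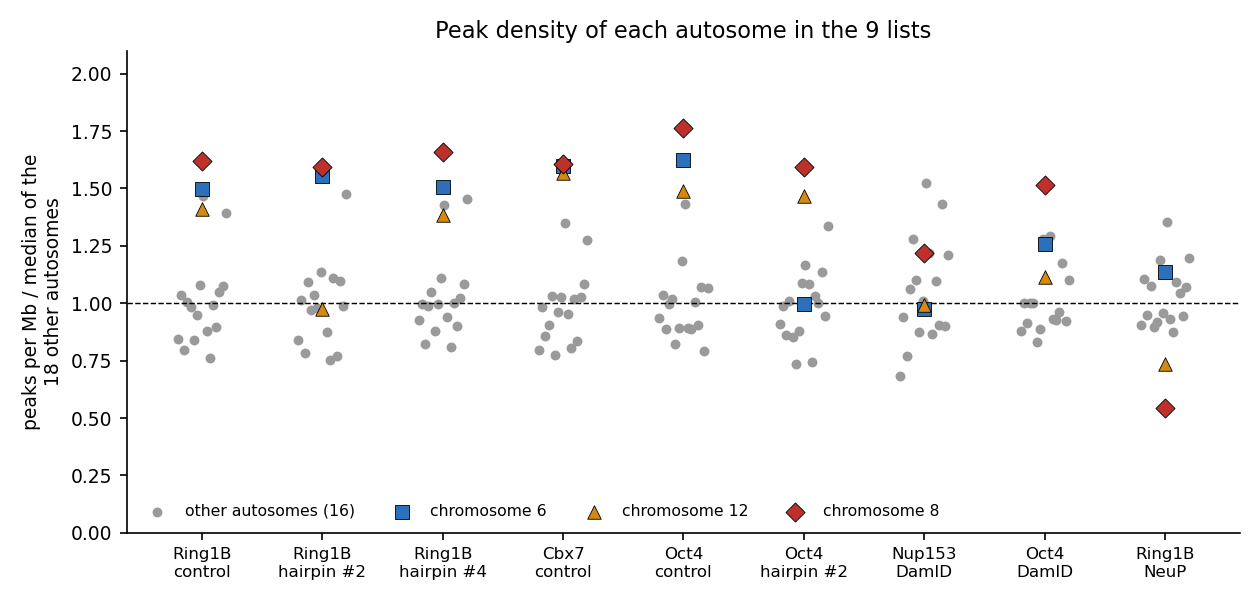
Peaks per Mb of each of the 19 autosomes divided by the median of the 18 autosomes other than chromosome 8 (y axis, no unit) in each of the 9 lists (x axis). Each point is 1 chromosome in 1 list. Chromosome 8 (red) lies between 1.22 and 1.77 in the 8 ESC lists and at 0.544 in the NeuP list, and chromosomes 6 and 12 are marked because they too lie high in several ESC lists.

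Other chromosomes lay high too. Chromosome 11, the densest in genes, was above the median in all 8 ESC lists, at 1.16 to 1.60, and so was chromosome 19, at 1.07 to 1.48. Chromosomes 6 and 12 lay high in part of the lists. For Ring1B in control ESC their ratios were 1.5 and 1.41, for Cbx7 1.60 and 1.57, and for Oct4 in control ESC 1.63 and 1.49. Chromosome 12 stood at 0.974 for Ring1B in hairpin #2, chromosome 6 stood at 0.999 for Oct4 in hairpin #2, and both lay at 0.977 and 0.991 in the Nup153 DamID list. In NeuP, chromosome 6 stood at 1.14 and chromosome 12 at 0.734. The difference in number between NeuP and control Ring1B lists was therefore taken chromosome by chromosome. NeuP had 1.23 times as many autosomal Ring1B peaks as the control, but 0.447 times as many on chromosome 8, the lowest of 19, before 0.692 on chromosome 12 and 1.01 on chromosome 6. Between ESC lists chromosome 8 moved with the rest: hairpin #2 had 1.28 times the control number on chromosome 8 and 1.30 times over all autosomes, and hairpin #4 had 1.02 and 1.01 times.

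The deficit in NeuP ran along nearly the whole chromosome. In 10 Mb windows numbered from the start of the chromosome, NeuP had fewer Ring1B peaks than the control in 13 of 14, with ratios from 0.2 in window 1 (8 and 40 peaks) to 0.630 in window 10 (58 and 92). The last window covers 1.71 Mb and held 7 peaks in each list. On the other autosomes 48 of 232 windows with at least 10 control peaks had fewer in NeuP, and their median ratio was 1.31. The fullest window in both lists was window 13, from 120 to 130 Mb, with 122 control and 76 NeuP peaks. The sparsest full window of the control was window 6, from 50 to 60 Mb, with 22 peaks and 19 genes.

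**Figure D2:**
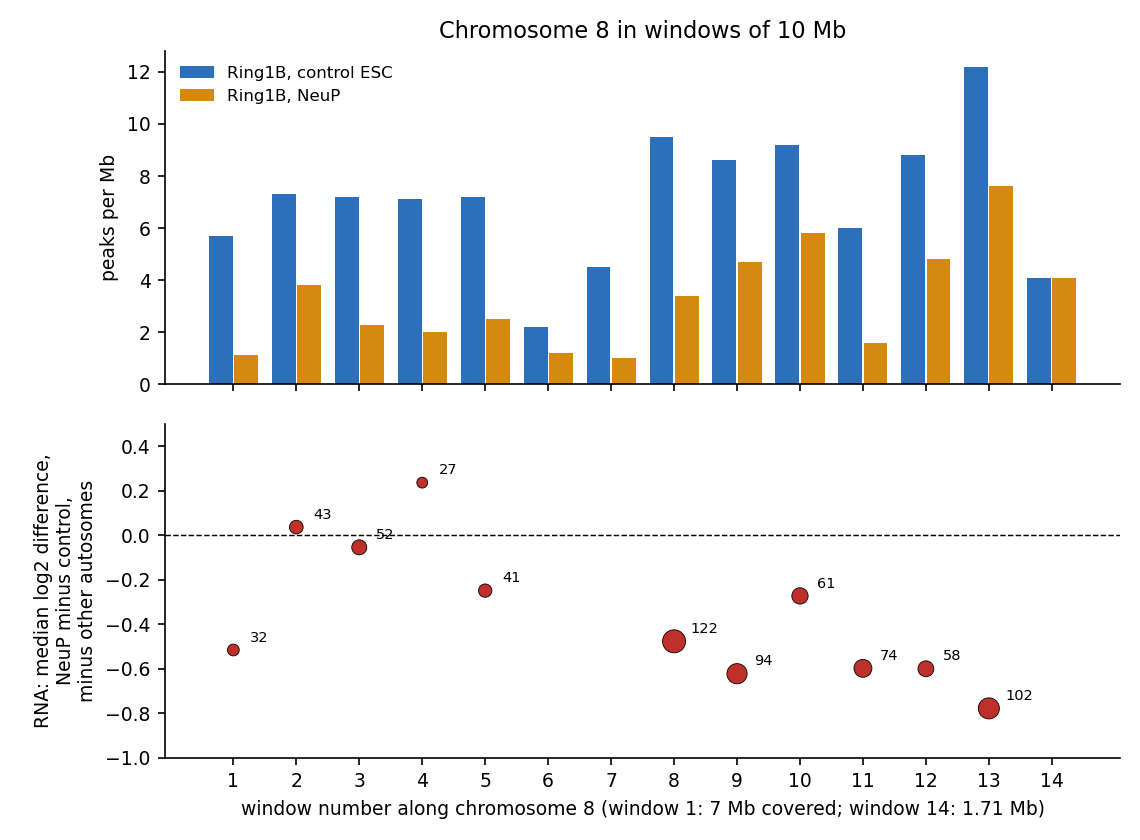
Top, Ring1B peaks per Mb in control ESC (blue) and NeuP (orange) in the 14 windows of 10 Mb along chromosome 8. Bottom, median log2 difference in RNA between NeuP and control ESC of the genes starting in each window, minus that of all other autosomes; numbers give the genes tested, and windows with under 20 are left out. Peaks are fewer in NeuP in 13 windows, whereas the RNA lies lower in 9 of the 11 windows shown and near or above the other autosomes in windows 2 to 4.

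The excess in ESC was not spread evenly over kinds of peaks, most clearly for Cbx7. For Cbx7, the 810 peaks farther than 2 kb from a transcript start had a ratio of 1.94, and the 164 peaks at starts one of 0.895, number 12 of the 19 autosomes. Their share of 4.98% (Wilson 95% interval 4.29 to 5.78) covers the 5.33% of the span. For Oct4 the ratios were 1.94 for 118 distal peaks and 0.701 for the 6 peaks at starts in control ESC. In hairpin #2 they were 1.65 for 121 and 0.968 for 8. With so few peaks at starts the Wilson intervals of the shares overlapped. They were 7.76 to 10.9% distal and 1.75 to 8.04% at starts in the control, and 7.28 to 10.2% and 2.69 to 10.0% in hairpin #2. For Ring1B in control ESC the ratios were equal within counting error, 1.61 for 792 distal peaks and 1.62 for the others, at starts. Hairpin #2 gave 1.73 and 1.35, and hairpin #4 1.66 and 1.51. The NeuP deficit was present in both classes, at 0.540 and 0.501.

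In 7 of the 8 ESC lists the density ratio was higher for peaks found in 1 list alone than for peaks found again. Found again means an overlap of 1 bp or more with any other list. For Ring1B in control ESC, 591 chromosome 8 peaks found again had a ratio of 1.44 and 354 found nowhere else had 1.97. The corresponding ratios were 1.29 and 2.09 in hairpin #2, 1.35 and 2.14 in hairpin #4, and 1.27 and 2.03 for Cbx7. In the Oct4 ChIP lists the pairs were 1.79 and 2.38 (15 peaks found nowhere else) in the control and 1.54 and 2.50 (16 peaks) in hairpin #2. The Oct4 DamID pair was 1.42 and 1.76. Nup153 DamID went the other way, with 1.28 for 170 peaks found again and 0.946 for 48 found nowhere else. Among NeuP peaks the ratios were 0.689 for the 98 found in an ESC list and 0.511 for the other 324.

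Width gave a related picture for Cbx7 and for Ring1B in hairpin #2, but not for the DamID lists. The histone-style lists have a narrowest common width of 501 bp. At that width or less, Cbx7 peaks had a ratio of 1.94 and wider ones 1.23, and Ring1B peaks of hairpin #2 had 1.86 and 1.35. For Ring1B in control ESC width made little difference, 1.63 and 1.59. In the Nup153 DamID list the 124 peaks of 2501 bp had a ratio of 0.998 and the 94 wider ones 1.64. In the Oct4 DamID list 173 such narrow peaks had 1.44 and the 97 wider ones 1.55, a difference within counting error. In NeuP the narrow peaks stood at 0.457 and the wider ones at 0.617.

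**Figure D3:**
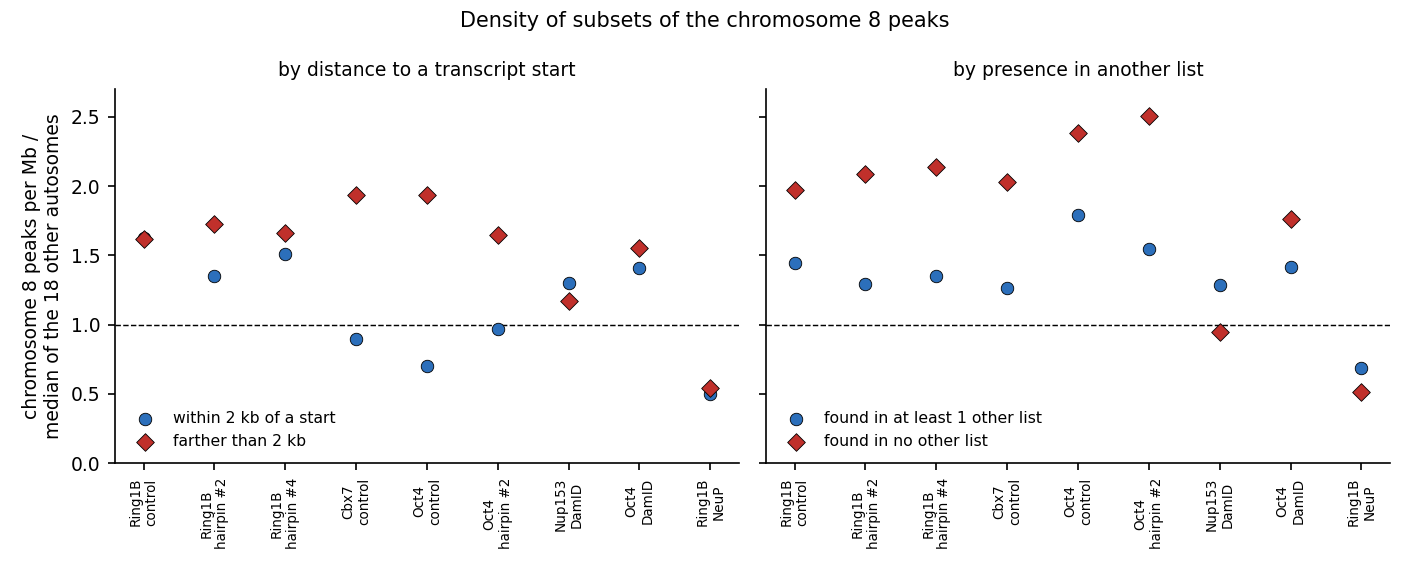
Density ratio of chromosome 8 (peaks per Mb divided by the median of the other 18 autosomes, no unit) in each list for peaks within and beyond 2 kb of a transcript start (left) and for peaks found in at least 1 other list or in none (right). The single-list peaks lie higher in each ESC list but Nup153 DamID, up to 2.50. The distal peaks lie higher in each ESC list but Nup153 DamID and Ring1B in control ESC (1.62 at starts and 1.61 distal). The counting intervals of distal peaks and peaks at starts overlap in each ESC list but Cbx7. All 4 NeuP values lie below 1.

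Control Ring1B peaks on chromosome 8 were found in the knockdown lists and in NeuP less often than those of other autosomes. Of the control Ring1B peaks, 38.1% of 945 on chromosome 8 (Wilson 95% interval 35.1 to 41.2) and 45.5% of 10741 elsewhere (44.6 to 46.5) overlapped a hairpin #2 peak, and 37.1% and 46.0% a hairpin #4 peak. With Cbx7 the shares were 23.5% (20.9 to 26.3) and 26.2% (25.4 to 27.0), whose intervals overlap. For Nup153 DamID the order was the other way, since 77.98% of its chromosome 8 peaks (72.02 to 82.97) were found in some other list, against 70.8% elsewhere. With NeuP, 35 chromosome 8 peaks overlapped, or 3.70% (2.67 to 5.11) against 7.81% (7.32 to 8.33). Read from the NeuP side, 33 of 422 peaks overlapped a control peak, or 7.82% (5.62 to 10.8) against 5.93% (5.55 to 6.33), and these intervals overlap. The first NeuP comparison depends on how many peaks NeuP has on the chromosome at all, which was the low number given above. The second depends in the same way on the control list, which was denser there, and the Nup153 share on the other ESC lists. Oct4 sites recurred alike: 81 of the 124 control Oct4 peaks on chromosome 8 were found in hairpin #2, or 65.3% (56.6 to 73.1), against 64.0% elsewhere.

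At transcript starts, 162 of 1144 chromosome 8 genes had a Ring1B peak within 2 kb in control ESC, or 14.2% (12.3 to 16.3), against 8.05% (7.69 to 8.42) on the other autosomes. In hairpin #2 the shares were 34.6% and 24.1%, and in hairpin #4 15.2% and 9.20%. Nup153 DamID peaks lay at 8.04% and 5.98% of starts. Cbx7 lay at 14.2% of starts on chromosome 8 and 13.4% elsewhere, within counting error. In NeuP the order turned: 73 chromosome 8 starts had a Ring1B peak, or 6.38% (5.11 to 7.95), against 11.1%, the lowest share of the 19 autosomes. Of the 162 starts bound in control ESC, 21 were bound in NeuP too (13%), against 25.8% of 1749 elsewhere.

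By place, the 1 Mb windows with the largest summed share of the lists began at 109, 74, 87, 35 and 73 Mb. Of the 9 lists summed, 8 are of ESC, so the sum favours windows with many ESC peaks. The lower NeuP counts in these windows are therefore partly set by the choice. The first holds Cdh1 and Cdh3, the genes of E- and P-cadherin, and had 23 Ring1B peaks in control ESC and 4 in NeuP. The window from 74 Mb, with Klf2, a factor of the naive pluripotent state, had 19 and 4, and that from 87 Mb, with Nfix and Calr, had 22 and 11. The window from 35 Mb holds 8 genes only, among them Dusp4 and Rbpms, and had 25 and 2. The widest Polycomb domains lay at Hand2, a heart and limb transcription factor gene: 15114 bp for Ring1B in hairpin #2 (mm9, chromosome 8, 59801005 to 59816118) and 13582 bp for Cbx7. In control ESC the widest Ring1B peak (2723 bp) overlapped Irx5, and in hairpin #4 the widest (3976 bp) lay at the start of the synapse organiser gene Cbln1. The widest Nup153 DamID peak (7555 bp) lay at the start of Hook2, which encodes a microtubule linker, and the widest Oct4 DamID peak (8790 bp) inside Rbpms. In NeuP the widest (3987 bp, 125950106 to 125954092) overlapped no transcript of the table.

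The start of Zfp703, a zinc finger repressor gene (mm9, chromosome 8, 28087808 to 28091934, plus strand), had a peak in 7 of the 9 lists, all but the Oct4 ChIP lists. Its RNA reached 1.21 FPKM in control ESC, 1.53 and 1.25 in hairpins #2 and #4, and 17.6 and 7.95 in NeuP, so both NeuP values lay above the ESC values (log2 difference 2.55 ± 0.50, SE, limma adjusted p = 0.0263). Chd9, a chromatin remodeller gene, and Tppp3, which encodes a tubulin-binding protein, had peaks in 6 lists. Chd9 had 13.6 FPKM in control ESC and 7.41 and 4.92 in NeuP, a difference that missed the threshold (adjusted p = 0.0556). Tppp3 fell from 7.20 FPKM in the control to 0.611 and 0.526 in NeuP, although a Ring1B peak was present in both cell types. Nrp1, a semaphorin and VEGF co-receptor gene (130882973 to 131029375, plus strand), had the 3 Ring1B lists of ESC, Cbx7 and Nup153 DamID at its start and no Ring1B peak in NeuP. It rose from 0.134 FPKM in the control (0.408 and 0.399 in the hairpins) to 9.39 and 9.43 (log2 difference 3.20 ± 0.15, adjusted p = 0.00240). Mir1903 shares the Nrp1 start and was not read apart from it. Foxc2 and Hand2, with Ring1B in ESC and in NeuP and Cbx7 in ESC, stayed at or under 0.246 FPKM in every library. LOC102636514, which starts next to Hand2 on the other strand, was listed at 0.

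The RNA libraries held 24.3 to 32.2 M fragments. Nup153 had 39.4 FPKM in control ESC and 20.9 and 17.4 in hairpins #2 and #4. The ESC markers listed for the check were lower in both NeuP libraries than in all ESC libraries for 6 of 7, Sox2 being the exception, and 6 of 7 neural progenitor markers were higher. The other, Sox1, is on chromosome 8 and stood at 0.948 to 1.84 FPKM in ESC and 2.16 and 1.82 in NeuP. The NeuP libraries differed in the astrocyte list, whose summed level was 257 and 26.7 FPKM (Gfap 173 and 0.563) against 0.073 to 0.258 in ESC. The neuron list summed to 243 and 131 against 8.87 to 13.8, mostly Map2 (224 and 118 FPKM in NeuP). Only 2 of its 4 markers, Map2 and Dcx, were higher in both NeuP libraries than in all ESC libraries. The feeder fibroblast list summed to 952 and 601 FPKM in NeuP, mostly Vim, and to 106 to 125 in ESC. Of its 8 markers, 6 were higher in both NeuP libraries and 2, Col1a1 and Col1a2, were lower. Xist, the RNA of the inactive X chromosome, was at 0.034 to 0.158 FPKM in ESC and at 16.4 and 113 in NeuP, and no Y-chromosome gene reached 1 FPKM in any library. The part of these differences between the cells in the results below was not tested, and in bulk RNA fewer cells of a type cannot be told apart from less RNA per cell.

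Control ESC and NeuP differ in the hairpin vector and its selection as well as in cell type. They may also differ in cell line and sex, since the line of NeuP is not named and Xist differed as given above. These cannot be told apart. Whether the libraries came from separate cultures is not given, so p-values measure the spread between these libraries, which may be technical. The control has 1 library and adds nothing to this spread. It comes from the 2 NeuP libraries and from the 2 different hairpins, which were fitted as 1 group. Among the genes tested, the median RNA of chromosome 8 was lower in NeuP relative to ESC than that of any other autosome. For each gene tested, the log2(FPKM + 1) level was taken minus its mean over the 5 libraries, and the median of the chromosome minus that of all other autosomes. This centring shows only the difference between libraries, since a low value in NeuP sets a high one in ESC. Chromosome 8 stood at 0.19 in the control, 0.20 in hairpin #2 and 0.21 in hairpin #4, above each of the other 18 autosomes, of which the highest was chromosome 12 at 0.13. In NeuP it stood at -0.24 and -0.33, below each other autosome. With only the genes at 5 FPKM or more in every library, a filter chosen after the data were seen, the values were 0.15, 0.17 and 0.18 in ESC and -0.20 and -0.31 in NeuP, again the extremes of the 19.

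**Figure D4:**
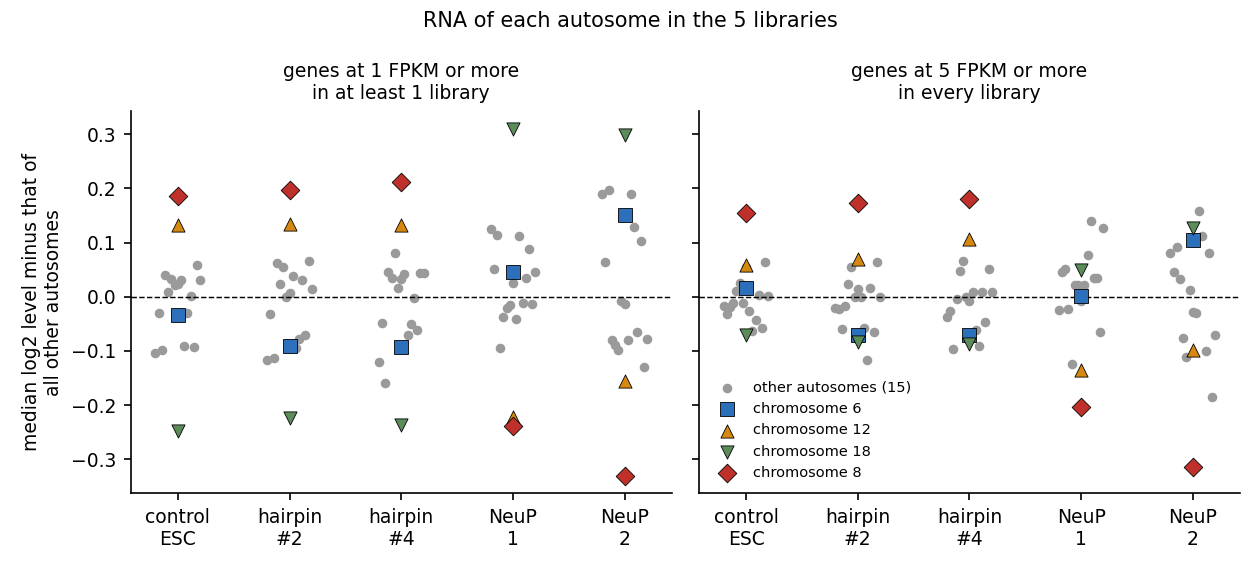
Median log2(FPKM + 1) of the genes of each autosome, after taking each gene minus its mean over the 5 libraries, minus the same median of all other autosomes (y axis), in each RNA library (x axis). Left, genes tested; right, genes at 5 FPKM or more in every library. Chromosome 8 (red) is the highest point in the 3 ESC libraries and the lowest in both NeuP libraries.

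The median difference between NeuP and control ESC was -0.71 for the 737 chromosome 8 genes tested (quartiles -1.56 and 0.35) and -0.24 for the 12501 of other autosomes (quartiles -1.14 and 0.77). The difference of these medians was -0.47, and it was -0.46 and -0.49 with each NeuP library taken alone. It shrank to -0.26 with a pseudocount of 5 and to -0.091 with no filter on low values, which adds genes at or near 0. Chromosome 8 was the lowest autosome, before chromosome 12 with a median of -0.54, and the highest was chromosome 18 at 0.37. On chromosome 8, 442 genes (59.97%) were lower than the control in both NeuP libraries, against 49.0% elsewhere. With the stricter filter the medians were -0.58 for 340 genes and -0.19 for 5407. Split by mean level, the median of the chromosome minus that of the other autosomes was -0.42 at 1 to 5 FPKM, -0.32 at 5 to 20, -0.52 at 20 to 50 and -0.61 above 50. After quantile normalization, which moves the median of all genes from -0.26 to -0.06, the difference of chromosome 8 from the rest was -0.46.

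In limma, 99 chromosome 8 genes were called higher in NeuP at an adjusted p under 0.05 (13.4% of 737) and 252 lower (34.2%). Over all 13750 genes tested, 18.3% were called higher and 24.9% lower. By autosome, chromosome 8 had the largest share called lower and the smallest share called higher, next to chromosome 12 with 31.9% and 14.6%. The fit has 2 residual degrees of freedom, and the counts depend on the libraries: without hairpin #2 or #4 they were 10 and 11 higher and 77 and 78 lower, and without NeuP replicate 1 or 2 they were 178 and 185 higher and 417 and 436 lower. Without hairpin #2 or #4 the share called lower on chromosome 8 was 10.52% and 10.7%, against 10.7% and 10.8% of all genes, so that the excess of lower calls was lost. Without NeuP replicate 1 or 2 it was 57.0% and 59.6%, against 44.2% and 49.0%. With the stricter filter 19 were higher (5.59%, against 9.95% of all) and 79 lower (23.2%, against 13.4% of all). In each of these settings the share called higher on chromosome 8 lay below that of all genes.

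Among the 7 pluripotency and germline genes tested, 6 were called lower in NeuP and 0 higher. Over the chromosome 34.2% of the genes tested were called lower and 13.4% higher, and over all genes 24.9% and 18.3%. Cdh1, the gene of E-cadherin (mm9, chromosome 8, 109127268 to 109194146, plus strand), reached 201 FPKM in control ESC, 134 and 148 in hairpins #2 and #4, and 0.071 and 0.056 in NeuP (log2 difference -7.57 ± 0.19, SE, adjusted p = 0.00238). Its start had a Ring1B peak in each ESC list and none in NeuP. Zfp42 (Rex1), a classical marker of ESC whose promoter holds the octamer printed above, was at 76.6, 104 and 109 FPKM in ESC and 0.277 and 0.252 in NeuP. DamID peaks of Nup153 and of Oct4 lay at its start, and no ChIP peak did. Its neighbours Triml2 and Triml1, tripartite motif genes, went from 78.3 and 17.7 FPKM in the control to 0.235 and 0.650, and to 0 in both NeuP libraries. Klf2 and Tex15, a gene of meiosis, fell too. Nanos3, a germ cell gene, was the one that was not called.

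Other genes with the largest falls were of mixed kinds. Got1l1, a homologue of aspartate aminotransferase genes, was at 141, 180 and 166 FPKM in ESC and 0.069 and 0.092 in NeuP. Cyba, a subunit gene of NADPH oxidase, was at 60.9, 39.9 and 38.3 FPKM and then at 0 in both NeuP libraries. Syce2, a gene of the synaptonemal complex of meiosis, stood at 74.1, 45.3 and 46.2 and then 0.083 and 0.602. Ifi30, the gene of a lysosomal thiol reductase, stood at 260, 132 and 130 and kept 5.70 and 6.75 FPKM. For each of these 4 the ESC and NeuP values lay far apart, and each had a Ring1B peak at its start in control ESC and none in NeuP. For Got1l1 and Ifi30 no hairpin list had this peak. Cyba had one in hairpin #2 but not in #4, and Syce2 had one in both. Palm3, Stxbp2 and Dpep3 made up the 10 largest falls, with log2 differences between -5.20 and -5.02. Palm3 had a Ring1B peak at its start in control ESC, and Stxbp2 and Dpep3 had none there.

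The 2 largest rises were in genes of the neural list. Gpm6a, a neuronal membrane glycoprotein gene (55864787 to 56146231, plus strand), was at 0.040, 0.195 and 0.358 FPKM in ESC and 208 and 156 in NeuP (log2 difference 7.44 ± 0.26, SE, adjusted p = 0.00238). Ncan, the gene of the brain proteoglycan neurocan (72616984 to 72644743, minus strand), was at 0.221, 0.202 and 0.483 and then 167 and 104 (6.76 ± 0.37, adjusted p = 0.00267), with Ring1B at its start in hairpin #2 and in NeuP. Both were under 1 FPKM in every ESC library, and the Gpm6a start had a Ring1B peak in hairpin #2. Of the 11 genes tested in the neural list, 4 were called higher and 4 lower, against 13.4% and 34.2% of all chromosome 8 genes. Their median was 0.37. Gnao1, a G protein subunit gene, rose to 7.76 and 4.36 FPKM. Ndrg4 fell from 17.4 FPKM to 5.14 and 2.48, and Cacna1a, a calcium channel gene, fell as well. Tubb3, a neuronal tubulin gene, had 8.29 FPKM in control ESC and 13.1 and 3.34 in NeuP and was not called.

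Other large rises were in Scrg1 (0 in the control, 78.3 and 40.2 FPKM in NeuP), Cpe, a prohormone-processing enzyme gene (6.02, then 580 and 155), Mtss1l (4.06, then 137 and 93.9) and the adhesion receptor gene Gpr56 (4.97, then 122 and 78.5). The spread between the NeuP libraries was wide for Cpe, whose log2 difference was 5.42 ± 0.89 (SE, adjusted p = 0.0173).

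**Figure D5:**
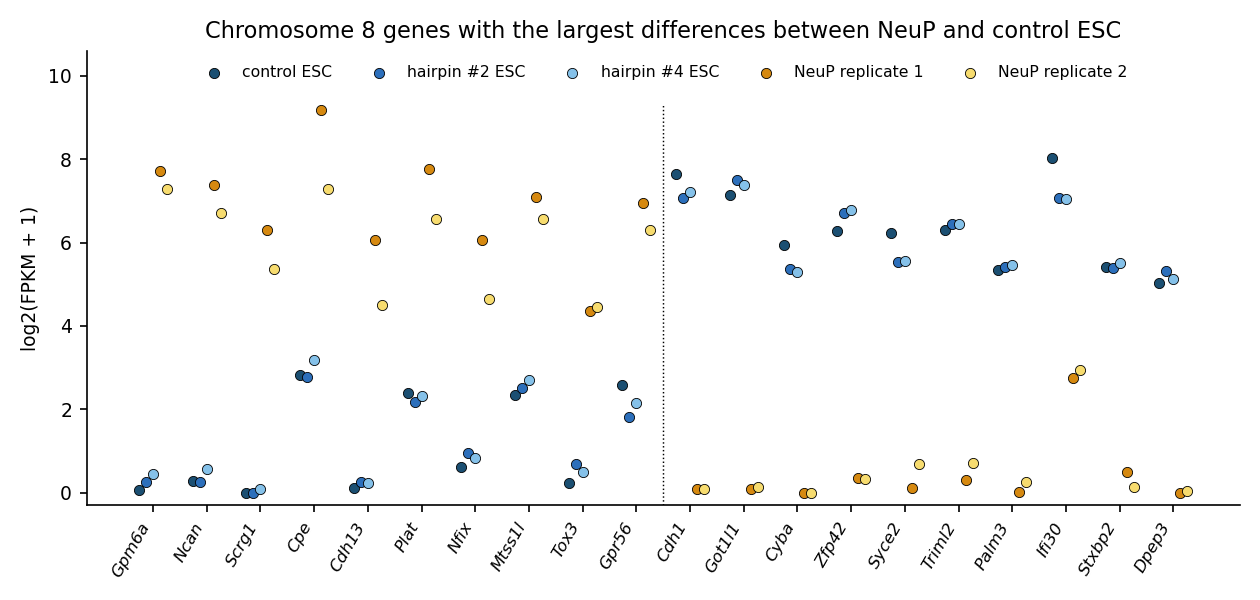
log2(FPKM + 1) of the 10 chromosome 8 genes with the largest rises (left of the dotted line) and the 10 with the largest falls (right) among those called between NeuP and control ESC. Each point is 1 library (blue, ESC; orange and yellow, NeuP). The ESC and NeuP points do not overlap for any of the 20 genes, which were chosen by this difference.

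Developmental transcription factor genes were tested for 13 of 23 on the chromosome, and the other 10 stayed under 1 FPKM in every library. Of the 13, 5 were called higher and 2 lower, against 13.4% and 34.2% of all chromosome 8 genes. In control ESC 15 of the 23 had a Ring1B peak at the start, and in NeuP 4 had. Over all chromosome 8 starts these shares were 14.2% and 6.38%. Tox3 (92771011 to 92872151, minus strand), whose promoter has the most CG of those shown, rose from 0.173 FPKM (0.625 and 0.407 in the hairpins) to 19.5 and 20.9, and Nfix, a nuclear factor I gene, from 0.524 (0.923 and 0.772) to 66.1 and 24.1. Irx5, an Iroquois homeobox gene, rose from 0.279 to 10.1 and 7.37. All 3 had Ring1B and Cbx7 at the start in control ESC and no Ring1B peak there in NeuP. Irf8, of the interferon regulatory factors, and Zfpm1, a GATA cofactor gene, fell.

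Of 16 signalling genes tested, 7 were called higher and 2 lower, against 13.4% and 34.2% of all chromosome 8 genes. Their median was 0.79. Plat, the gene of tissue plasminogen activator, went from 4.28 FPKM to 217 and 93.8, and Cx3cl1, the chemokine fractalkine, from 0.565 to 21.6 and 7.97. Sfrp1, a secreted Wnt inhibitor, fell from 18 FPKM to 0.698 and 3.03, and Nrg1, the neuregulin 1 ligand, fell as well. Fgfr1, a receptor of FGF, had 37.5 FPKM in control ESC and 45.6 and 32.0 in NeuP. The cadherins moved in opposite directions: Cdh13 rose from 0.087 to 65.8 and 21.7 FPKM and Cdh11 from 0.178 to 9.32 and 13.9, while Cdh1 and Cdh3 fell. Cdh3 went from 6.47 FPKM to 0.008 and 0. The median of these 4 was 0.25, and it turned to -0.31 with a pseudocount of 0.1 and to -1.78 with voom.

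Replication, cell cycle and chromatin genes had a median of -1.61 over 18 tested. Of these 1 was called, the kinetochore gene Cenpt, which fell, against 34.2% called lower over the chromosome. The NeuP libraries differed widely in this list. Mcm5, a subunit gene of the replicative helicase, had 113 FPKM in control ESC and 1.84 and 32.8 in NeuP (adjusted p = 0.156), and Cdt1, a replication licensing gene, at 77.9 and then 0.300 and 8.85 (adjusted p = 0.0649). In both the first NeuP library was the lower. Gins2, of the same helicase complex, was at 81.4 and then 3.20 and 16.2, and the histone chaperone gene Asf1b at 43.2 and then 0.332 and 15.0. The general housekeeping list had a median of -1.44. Of its 11 genes 7 were called lower and 0 higher, against 34.2% and 13.4% of all chromosome 8 genes. Eif4ebp1, a brake on translation, went from 250 FPKM to 11.3 and 14.3, Aars, alanyl-tRNA synthetase, from 283 to 40.004 and 43.4, and Calr, the endoplasmic reticulum chaperone calreticulin, from 1033 to 243 and 392.

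In the metallothionein cluster, whose proteins bind zinc and copper, Mt1 fell from 476 FPKM (364 and 257 in hairpins #2 and #4) to 13.1 and 17.0, and Mt4 from 1.84 to 0 in both. Mt2 had 670 FPKM in control ESC and 426 and 5.46 in NeuP, so that the first NeuP value lay within the ESC range and the other far below it. Mt3, the form of brain, was at 8.87 and then 157 and 28.1 (log2 difference 2.78 ± 1.11, SE, adjusted p = 0.122), both above the ESC values. The 41 defensin genes, a family of antimicrobial peptides expressed mainly in gut and epithelia, reached at most 0.205 FPKM, and none had a Ring1B peak at its start in control ESC or in NeuP.

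The RNA difference was set beside the Ring1B peaks at starts. Genes with a peak in control ESC and none in NeuP had a median of -1.18 on chromosome 8 and of -0.69 elsewhere. Of 101 tested on chromosome 8, 15 were called higher and 47 lower, and of 925 elsewhere 156 and 359. Over all chromosome 8 genes tested 13.4% were called higher and 34.2% lower, and over all genes 18.3% and 24.9%. Where both cell types had a peak the medians were -0.61 (17 genes) and 0.59 (325), and with a peak in NeuP alone they were -0.13 (45) and 0.25 (1659). Without a peak in either they were -0.71 (574) and -0.29 (9592). On chromosome 8 the genes called higher and lower were 2 and 5 with both peaks, 11 and 6 with NeuP alone, and 71 and 194 with neither. Elsewhere these counts were 114 and 49, 465 and 216, and 1563 and 2400. In each of these 4 classes the chromosome 8 median lay below that of the other autosomes. The class without a peak was set by the control and NeuP lists alone. In hairpin #2, 34.6% of chromosome 8 starts had a Ring1B peak, against 14.2% in the control, and genes of this class, such as Gpm6a, can have one there. Whether Ring1B had a part in the RNA shift was not tested.

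Along the chromosome the RNA shift was less even than the loss of peaks. Of the 11 windows of 10 Mb with at least 20 genes tested, 9 lay below the other autosomes. The lowest was window 13, from 120 to 130 Mb, at -0.78 (102 genes). Windows 2, 3 and 4, from 10 to 40 Mb, lay at 0.04 (43 genes), -0.05 (52) and 0.24 (27), while NeuP had 0.521, 0.319 and 0.282 times the control number of Ring1B peaks in them.

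In the Nup153 knockdown no chromosome 8 gene was called: limma called 0% of the 13750 genes in either direction, and voom called 0 too. The fit pools the spread of the knockdown and NeuP libraries and has a single control library. Its lack of calls therefore does not show that the knockdown left the RNA unchanged. At an unadjusted p under 0.05 there were 43 of 737 chromosome 8 genes and 814 of all genes (29 and 481 with voom). Without a filter on low values 2 chromosome 8 genes were called higher and 5 lower, of 55 and 175 over all 24016. The chromosome median lay 0.03 above that of the other autosomes, and 0.02 with each hairpin alone, so the ESC libraries were alike in this. By size, and with both hairpins on the same side of the single control, the highest were C330021F23Rik (1.71 FPKM in the control, 5.59 and 5.11 in hairpins #2 and #4), Vegfc, a lymphatic growth factor gene (0.653, then 3.00 and 2.35), the kinase gene Pskh1 (8.06, then 16.4 and 16.7), the Ras regulator gene Rasa3 (5.42, then 11.1 and 10.9) and Tex15 (1.92, then 4.27 and 4.66). The Vegfc start had Ring1B peaks in each ESC list and Oct4 ChIP peaks in control and hairpin #2. The lowest were Mir23a, Ifi30 (260, then 132 and 130), Calr (1033, then 567 and 563), the muscle actin gene Acta1 (11.4, then 7.83 and 4.45) and 2210011C24Rik (4.76, then 2.7 and 2.04). Mir23a, at 2.13 and then 0.434 and 0.530 FPKM, is the short precursor of a miRNA, and its value in libraries of polyadenylated RNA is uncertain. Adjusted p-values of these 10 genes lay between 0.825 and 0.881.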

How the data were processed

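The members and gene lists were chosen with earlier results of these data known. Per the file headers, the authors called ChIP peaks with HOMER findPeaks, 1 library per list, at 4-fold over an ESC control library. Per the submitters' processing notes, HOMER 4.6, Bowtie2 2.1.0, STAR 2.2.0c and mm9 were used. The sources used here do not give how the DamID replicates were combined with the GFP control, and the GFP samples were not analysed here. Peaks enter by position alone. RNA values are FPKM as deposited by the authors, and their steps gave whole reads (within 0.1) for 100% of the low values tested.

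Density ratios have 95% Poisson intervals on the chromosome 8 count, and shares have Wilson intervals. Both cover counting error only. RNA was fitted with limma 3.58.1 (trend, R 4.3.3) on log2(FPKM + 1) for genes with at least 1 FPKM in 1 library, with 3 groups and Benjamini-Hochberg adjustment over 13750 genes. The limma fit was tested on simulated data. Tables were joined with pandas 2.3.3. Genes are named by rule: the 10 highest and 10 lowest among those called in NeuP, the 5 highest and 5 lowest in the knockdown with both hairpins on the same side, up to 4 per gene list by size of the NeuP difference, and the 8 with starts in the most lists. The other list members in the text, Sox1, Klf2, Nanos3, Tubb3, Cacna1a, Fgfr1, Nrg1, Irf8, Zfpm1 and Cenpt, were chosen after their values were seen. Of the listed symbols, 1 each of 4 lists was not on chromosome 8 in the table and was dropped. A gene that the rule names is not reported here. Alternatives are given in the closing section.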

Additional observations from a re-analysis of the deposited data

How the results depend on the processing

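The density ratio of chromosome 8 was above 1 in 67 of 70 settings over the 8 ESC lists (0.701 to 1.94) and in 0 of 9 for NeuP (0.484 to 0.689). Values that moved beyond the counting interval were, with peaks within 2 kb of a start, 1.35 in Ring1B hairpin #2, 1.51 in hairpin #4, 0.895 for Cbx7, 0.701 for Oct4 in the control and 0.968 for Oct4 in hairpin #2. With distal peaks they were 1.73 in hairpin #2 and 1.94 for Cbx7, with peaks as wide as the median or wider 1.34 in hairpin #2 and 0.604 in NeuP, and without the fullest 10 Mb window 1.45 and 1.51 in hairpins #2 and #4 and 0.484 in NeuP. With peaks found in another list, chosen after seeing the data, Ring1B gave 1.44 in the control, 1.29 in hairpin #2, 1.35 in hairpin #4 and 0.689 in NeuP, and Cbx7 gave 1.27. An overlap of at least 50% of the peak, in place of 1 bp, gave 2.54% shared from the control side and 4.98% from the NeuP side. The count called higher in NeuP ranged from 10 to 185 and that called lower from 77 to 436 when 1 library was left out. Without hairpin #2 or #4 the share called lower on chromosome 8 (10.52% and 10.7%) was no longer above that of all genes (10.7% and 10.8%). At 5 FPKM or more in every library, also chosen after seeing the data, 19 were higher and 79 lower, with fewer genes tested. These were 5.59% and 23.2%, against 9.95% and 13.4% of all genes. The difference of medians of -0.47 in NeuP became -0.51 against the mean of the ESC groups, -0.61 with a pseudocount of 0.1, -0.26 with one of 5, -0.091 with no filter, -0.62 with voom and -0.39 at 5 FPKM or more, and lay between -0.48 and -0.45 with 1 library left out. In the knockdown, no filter gave 2 called higher and 5 lower. Its difference of medians of 0.03 became 0.014 with a pseudocount of 0.1 and with voom, 0.024 with a pseudocount of 5 and with no filter, 0.037 after quantile normalization and 0.036 at 5 FPKM or more, and 0.021 to 0.030 with 1 library left out. Where no construction is named, the cause was not tested.

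No paired analysis was possible because each DamID list stands for both of its replicates and the hairpins (2 and 4) share only 1 number with the NeuP replicates (1 and 2). Each ChIP list rests on 1 library, so no density has a replicate check, and the RNA has 1 control library. Depth differed between the ChIP lists (4.99 to 33.2 M tags), and no DNA copy number was measured in the files used here.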
